A study of Arabidopsis thaliana with 18 samples.

Results

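The cytochrome P450 genes are described here across root protoplasts of Arabidopsis that over-expressed the auxin repressors IAA19mII or IAA7mII or carried an empty vector, each with or without the auxin indole-3-acetic acid (IAA). The genes were chosen by name only: every gene whose symbol in the platform's probe annotation is CYP, 2 or 3 digits and a letter, taken from probesets that match a single gene. They numbered 23 of the 13350 genes with such a probeset, and each had 1 probeset. Of the 23, 19 belong to the CYP71B subfamily and the other 4 are CYP51G2, CYP78A9, CYP79A2 and CYP84A4. The rule uses no measured value, though the family was picked with earlier results of these data known.

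Cytochrome P450s are heme enzymes, most of them anchored in the endoplasmic reticulum, that put an oxygen atom from molecular oxygen into their substrate with electrons passed on from an NADPH-dependent reductase. Plants hold very many of them and use them to build and break down hormones, sterols, wall polymers, pigments and defence compounds. In roots, several act on indole compounds made from tryptophan, among them precursors of auxin and of the indole glucosinolates. The CYP71B genes lie largely side by side in tandem arrays, and most of their products have no settled substrate.

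Col-0 seedlings carrying Pwer::GFP, in which the WEREWOLF promoter drives the green protein and is active in root epidermis and lateral root cap, were grown for 7 days, and their roots were digested for 3 h to protoplasts. The 6 groups of 3 arrays were IAA19mII with IAA, IAA19mII in mock, IAA7mII with IAA, IAA7mII in mock, empty vector with IAA and empty vector in mock. IAA was given at 5 µM for 3 h after a night in culture, mock cells received solvent, and cells bearing both fluorescent labels were sorted for RNA. IAA7 and IAA19 are Aux/IAA repressors that auxin marks for degradation by way of domain II. The suffix mII is read as a change in that domain, an assumption, since no label explains it. The expression is transient and the reporter line is shared by all groups. The over-expressor plasmids are built on pBeaconRFP and the empty vector is pMON999_mRFP, so a change over the empty vector cannot be told apart from one of the backbone. Only IAA19mII against IAA7mII, and IAA against mock within a vector, compare cells with 1 backbone.

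Levels are MAS5 signals on a linear scale, and changes are log2 differences of signal + 16, which understate changes of dim probesets. Each ± beside a log2 change is its standard error, from an estimate of that probeset's spread that all 6 groups share. A change was called at a limma adjusted p under 0.05 over all 16892 probesets tested. The pooled error hides unequal spread: the median SD of a probeset on the log2 scale was 0.35 to 0.44 in the over-expressor groups, against 0.26 and 0.29 in the empty vector groups. Within groups, arrays had Pearson correlations of 0.931 to 0.976 across probesets. Of the fixed marker lists for the sorted tissue, 1 of 11 epidermis and lateral root cap genes had a probeset used here: the root hair expansin EXPA7 ran from 40.8 to 203 in IAA19mII cells, from 19.2 to 63.6 in IAA7mII cells and from 19.1 to 218 in empty vector cells, without a call in any comparison. Of the other cell types, 1 of 7 ground tissue markers (AT1G62500, at most 21.6 and above its array's 40th percentile on 0 of 18 arrays) and 0 of 9 stele markers could be read, so the labelled cell type was checked only in small part. Fewer cells of a type and less RNA per cell cannot be told apart in these bulk samples.

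A probeset was tested when it exceeded its array's 40th percentile, a signal of 20.6 to 32.3, on at least 3 of the 18 arrays. By this measure 14 of the 23 P450 genes were tested and 9 were not. Only CYP71B6, CYP71B23 and CYP71B5 exceeded it on all 18 arrays. CYP71B29 did so on all 12 over-expressor arrays and on 0 of the 6 empty vector arrays. CYP71B21, CYP71B28, CYP71B24 and CYP71B27 likewise passed through the over-expressor arrays alone, with 9, 10, 6 and 3 arrays above. In all, 7 of the 14 had fewer than 3 empty vector arrays above that level and would not have been tested on those arrays alone. Among them, CYP71B34 and CYP71B35 had 2 empty vector arrays above it, and the other 5 had 0. The 9 untested genes never read above 35.6, and none of them exceeded the percentile on more than 2 arrays.

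**Figure D1:**
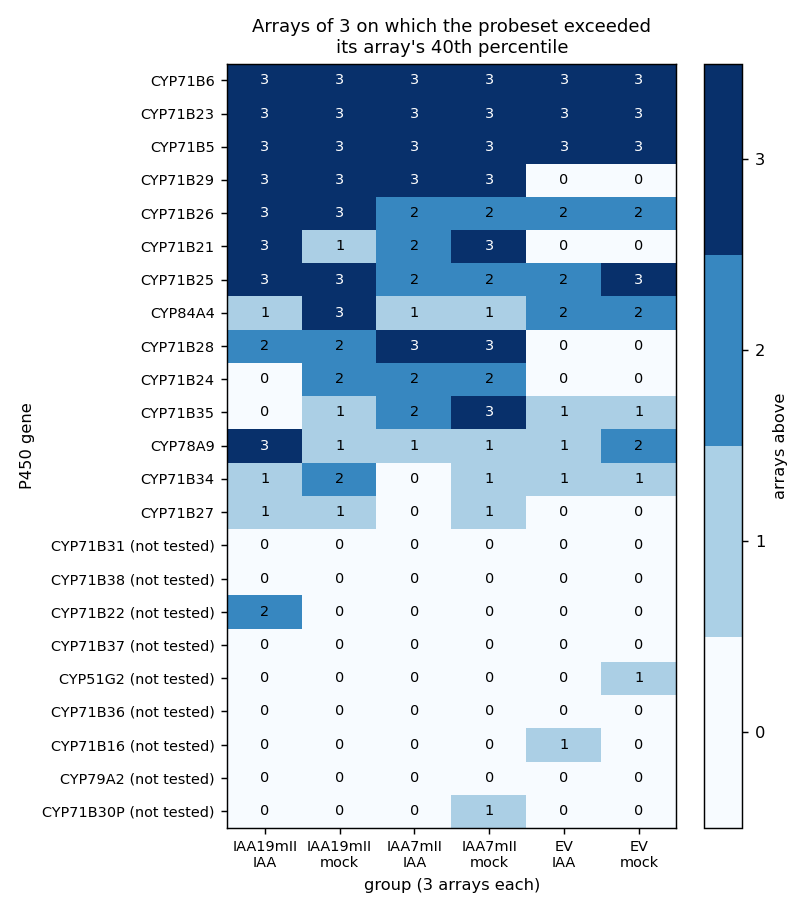
Number of arrays out of 3 in each group on which each of the 23 P450 probesets exceeded the 40th percentile of its array; columns are the 6 groups and rows the genes in order of mean signal. CYP71B29 is above on all over-expressor arrays and on 0 empty vector arrays, and the 9 genes at the bottom were not tested.

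Across the 6 groups, 6 of the 14 tested genes differed by limma's F test, which is 42.9% beside 30.3% of all probesets. They were CYP71B5 (adjusted p = 6.03e-09), CYP71B23 (8.58e-08), CYP71B29 (1.08e-07), CYP71B6 (7.37e-06), CYP71B21 (0.00594) and CYP71B28 (0.0162). Of these, CYP71B29, CYP71B21 and CYP71B28 were tested through their over-expressor arrays alone. The share called therefore leans upwards by construction and is given as a description. The other 8 (CYP71B26, CYP71B25, CYP84A4, CYP71B24, CYP71B35, CYP78A9, CYP71B34 and CYP71B27) were called in none of the 12 comparisons.

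Among genes with a known role, CYP71B6 was called. In Arabidopsis its enzyme converts indole-3-acetonitrile, a breakdown product of indole glucosinolates and a possible auxin precursor, to indole-3-carbaldehyde. CYP71B6 read 5254, 6416 and 5108 in IAA19mII cells with IAA and 5171, 5078 and 5645 in IAA19mII mock cells. In IAA7mII cells it read 2715, 3292 and 2690 with IAA and 2738, 3070 and 3009 in mock. Empty vector cells gave 4182, 4267 and 4545 with IAA and 4188, 5768 and 4497 in mock. All 6 IAA7mII arrays lay below all 6 IAA19mII arrays and below all 6 empty vector arrays. How many of all probesets have IAA7mII arrays wholly below the empty vector arrays was not counted.

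The comparison of the repressors with each other asks whether they differ in what they change, on a shared backbone. CYP71B6 was 1.92-fold higher in IAA19mII than in IAA7mII cells with IAA (log2 change 0.94 ± 0.15, limma adjusted p = 0.000102) and 1.80-fold higher in mock (0.85 ± 0.15, adjusted p = 0.000429). It was the only tested gene of the chosen set called in either, 1 of 14, beside 6.64% of all probesets with IAA (4.17% higher) and 4.37% in mock (3.14% higher). A probeset that matches 2 CYP71B genes, and so lies outside the set, was also called, in the opposite direction. That probeset was 2.88-fold lower in IAA19mII cells with IAA (limma adjusted p = 0.0122) and 2.54-fold lower in mock (adjusted p = 0.0358). Over all probesets tested, the 6 IAA19mII arrays lay wholly above the 6 IAA7mII arrays for 3.29%. Against the empty vector, CYP71B6 was 1.62-fold lower with IAA7mII in mock (-0.70 ± 0.15, limma adjusted p = 0.00188) and 1.497-fold lower with IAA (-0.58 ± 0.15, adjusted p = 0.00556). With arrays centred on their medians the log2 change with IAA was -0.37 and no longer passed (adjusted p = 0.182). With IAA19mII it was not called over the empty vector: 0.15 ± 0.15 in mock (adjusted p = 0.563) and 0.36 ± 0.15 with IAA (adjusted p = 0.0767). The epidermal marker EXPA7 had the same order of vectors, with medians of 86.95 in IAA19mII, 28.15 in IAA7mII and 54.05 in empty vector cells. Its log2 difference, IAA19mII over IAA7mII, was 1.16 ± 0.52 with IAA (adjusted p = 0.208) and 1.15 ± 0.52 in mock (adjusted p = 0.294), and its part in the CYP71B6 result was not tested.

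None of the other tested genes of the chosen set was called between IAA19mII and IAA7mII cells, and the intervals are wide. With IAA the 95% interval of the log2 difference, IAA19mII minus IAA7mII, was -0.28 to 1.03 for CYP71B5, -0.62 to 0.26 for CYP71B23 and -1.50 to -0.04 for CYP71B29, whose adjusted p was 0.224. In mock it was -0.44 to 0.88 for CYP71B5, -0.74 to 0.14 for CYP71B23 and -1.14 to 0.33 for CYP71B29.

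The over-expressors were next set against empty vector cells, to ask what the plasmids change in mock and with IAA. These comparisons share the empty vector arrays, so the values with IAA19mII and IAA7mII are not independent of each other. CYP71B5, CYP71B29 and CYP71B23 rose with both plasmids and in both treatments. For each of them all 12 over-expressor arrays lay above all 6 empty vector arrays, which 3.42% of all probesets tested showed. CYP71B29 was tested through its over-expressor arrays alone, so its separation and its calls are tied to that choice and are given as a description.

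CYP71B5 read 359, 570 and 550 in IAA19mII cells with IAA and 388, 359 and 512 in IAA19mII mock cells. IAA7mII cells read 271, 626 and 295 with IAA and 406, 362 and 301 in mock, against 55.7, 33.9 and 39.6 in empty vector cells with IAA and 73.3, 46.2 and 92.6 in empty vector mock cells. The lowest over-expressor array was therefore well clear of the highest empty vector array. CYP71B5 was 8.55-fold higher with IAA19mII (3.10 ± 0.32, limma adjusted p = 4.75e-08) and 6.60-fold higher with IAA7mII (2.72 ± 0.32, adjusted p = 4.89e-07) in cells given IAA. In mock the values were 5.10-fold (2.35 ± 0.32, adjusted p = 6.71e-06) and 4.38-fold (2.13 ± 0.32, adjusted p = 3.61e-05).

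CYP71B29 read 66.5, 59.7 and 68.3 in IAA19mII cells with IAA and 62.8, 61.5 and 78.8 in mock. It read 175, 150.3 and 66.2 in IAA7mII cells with IAA and 103, 82.9 and 99.2 in mock, while the 6 empty vector arrays stayed between 0.9 and 3.4. Since those 6 arrays were all under the 40th percentile, its fold is given as a bound against the percentile itself. CYP71B29 was at least 2.40-fold higher with IAA19mII (limma adjusted p = 7.45e-05) and at least 4.45-fold higher with IAA7mII (adjusted p = 1.01e-06) in cells given IAA. In mock it was at least 2.80-fold higher with IAA19mII (adjusted p = 0.000111) and at least 3.94-fold higher with IAA7mII (adjusted p = 1.29e-05). The IAA7mII array at 66.2 overlapped the IAA19mII arrays, and the other 5 IAA7mII arrays lay above all 6 of them.

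CYP71B23 read 2314, 2101 and 1354 in IAA19mII cells with IAA and 2010, 1706 and 1464 in mock. In IAA7mII cells it read 2536, 2048 and 1841 with IAA and 2330, 1724 and 2345 in mock. The empty vector values were 406, 510 and 664 with IAA, and 1079, 1088 and 1021 in mock. Here the empty vector groups themselves were apart, so the distance from the over-expressors was greater with IAA: 3.55-fold for IAA19mII (1.83 ± 0.22, limma adjusted p = 4.42e-07) and 4.02-fold for IAA7mII (2.01 ± 0.22, adjusted p = 1.07e-07). In mock it was 1.60-fold for IAA19mII (0.68 ± 0.22, adjusted p = 0.0324) and 1.97-fold for IAA7mII (0.98 ± 0.22, adjusted p = 0.00266). The change of this distance between treatments was itself not called (limma adjusted p = 0.270 for IAA19mII and 0.569 for IAA7mII). The mock IAA19mII call was lost when any 1 of 5 arrays was left out, with adjusted p of 0.0786, 0.0701 and 0.103 without empty vector mock replicates 1, 2 and 3, and 0.146 and 0.0786 without IAA19mII mock replicates 1 and 2.

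**Figure D2:**
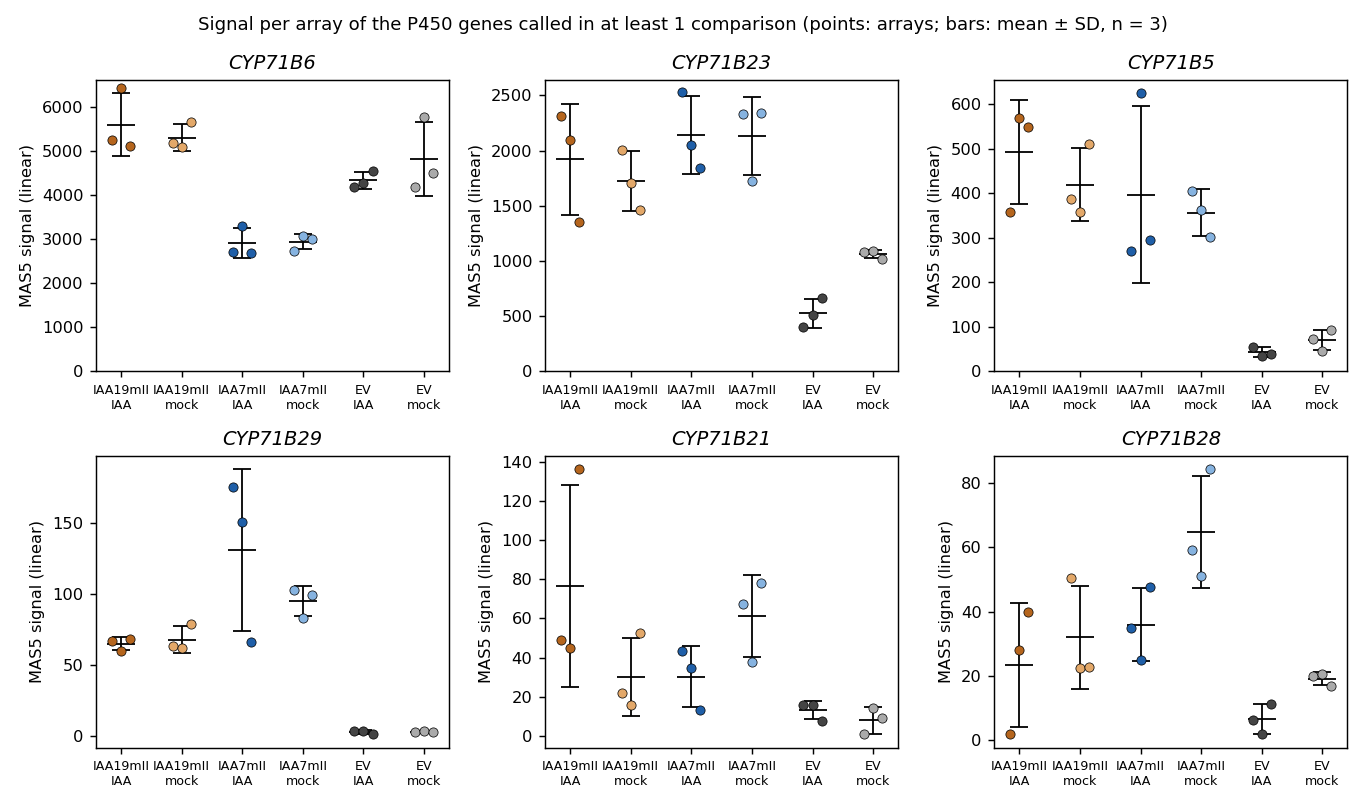
MAS5 signal (linear) of the 6 P450 genes called in at least 1 comparison; each point is 1 array of the group on the horizontal axis and bars give the mean ± SD of 3 arrays. CYP71B5, CYP71B29 and CYP71B23 have all 12 over-expressor arrays above the 6 empty vector arrays, CYP71B6 has its 6 IAA7mII arrays lowest, and CYP71B21 and CYP71B28 are dim.

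CYP71B21 and CYP71B28 are dimmer, and their calls depended on single arrays. No empty vector array was above the 40th percentile for either gene, so folds over the empty vector are again bounds. CYP71B21 read 67.5, 37.8 and 78.2 in IAA7mII mock cells, against 0.7, 14.1 and 8.9 in empty vector mock cells, at least 2.43-fold higher (limma adjusted p = 0.00924). With IAA it read 48.8, 44.8 and 136 in IAA19mII cells, against 16, 15.8 and 7.8 in empty vector cells, at least 2.47-fold higher (adjusted p = 0.0101). Its remaining pairs were not called: IAA19mII in mock read 22, 15.7 and 52.5 (adjusted p = 0.168) and IAA7mII with IAA read 43.2, 34.4 and 13.2 (adjusted p = 0.352). The IAA7mII call was lost without empty vector mock replicate 1 (adjusted p = 0.0684) or IAA7mII mock replicate 3 (0.0518), and the IAA19mII call without empty vector IAA replicate 3 (0.0501) or IAA19mII IAA replicate 3 (0.0753).

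CYP71B28 read 34.8, 25.0 and 47.7 in IAA7mII cells with IAA, against 6.1, 1.7 and 11.1 in empty vector cells with IAA. It was at least 1.28-fold higher there (limma adjusted p = 0.0364). That call was lost when any 1 of 5 of these 6 arrays was left out, all but IAA7mII IAA replicate 2 (adjusted p of 0.0506 without empty vector IAA replicate 3 to 0.139 without empty vector IAA replicate 2, with 0.0825 without empty vector IAA replicate 1 and 0.0694 and 0.110 without IAA7mII IAA replicates 1 and 3). In mock it read 59.2, 51.0 and 84.4 in IAA7mII cells, against 19.8, 20.6 and 16.8 in empty vector cells, without overlap and without a call (at least 2.64-fold by the bound, adjusted p = 0.0605). The share of all probesets so separated was not counted, and CYP71B28 was tested through its over-expressor arrays alone. In IAA19mII cells CYP71B28 read 1.9, 28 and 39.7 with IAA and 50.6, 22.5 and 22.6 in mock, also without a call.

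Counted over the tested genes, IAA7mII in mock had 4 P450 genes higher and 1 lower, which is 35.7% of 14, beside 11.4% of all probesets tested (5.33% higher and 6.09% lower). IAA7mII with IAA again had 4 higher and 1 lower, beside 19.5% (7.72% higher and 11.7% lower). IAA19mII had 3 higher in mock, which is 21.4%, beside 14.5% of all probesets in either direction and 6.64% higher. With IAA it had 4 higher, which is 28.6%, beside 23.5% in either direction and 9.26% higher. The median log2 change of the 14 was 0.54 with IAA19mII and 0.57 with IAA7mII in mock, beside -0.14 and -0.09 over all probesets. With IAA it was 0.68 with IAA19mII and 0.19 with IAA7mII, beside -0.17 for each over all probesets. Because 5 of the 14 genes were tested through over-expressor arrays alone, these counts and medians lean upwards by construction and are given as a description. Centring the arrays on their medians moved the median of all probesets with IAA to -0.04 for IAA19mII and 0.05 for IAA7mII. The median of the 14 genes was not taken after centring, so these values cannot be set beside 0.68 and 0.19. Centring also moved the share of higher among all called probesets with IAA to 52.1% for IAA19mII and 61.0% for IAA7mII, against 39.3% and 39.7% without it. In mock that share moved to 60.7% for IAA19mII, against 45.9%, and to 55.4% for IAA7mII, against 46.7%. The P450 genes called with IAA7mII and IAA were then 4 higher and 0 lower.

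**Figure D3:**
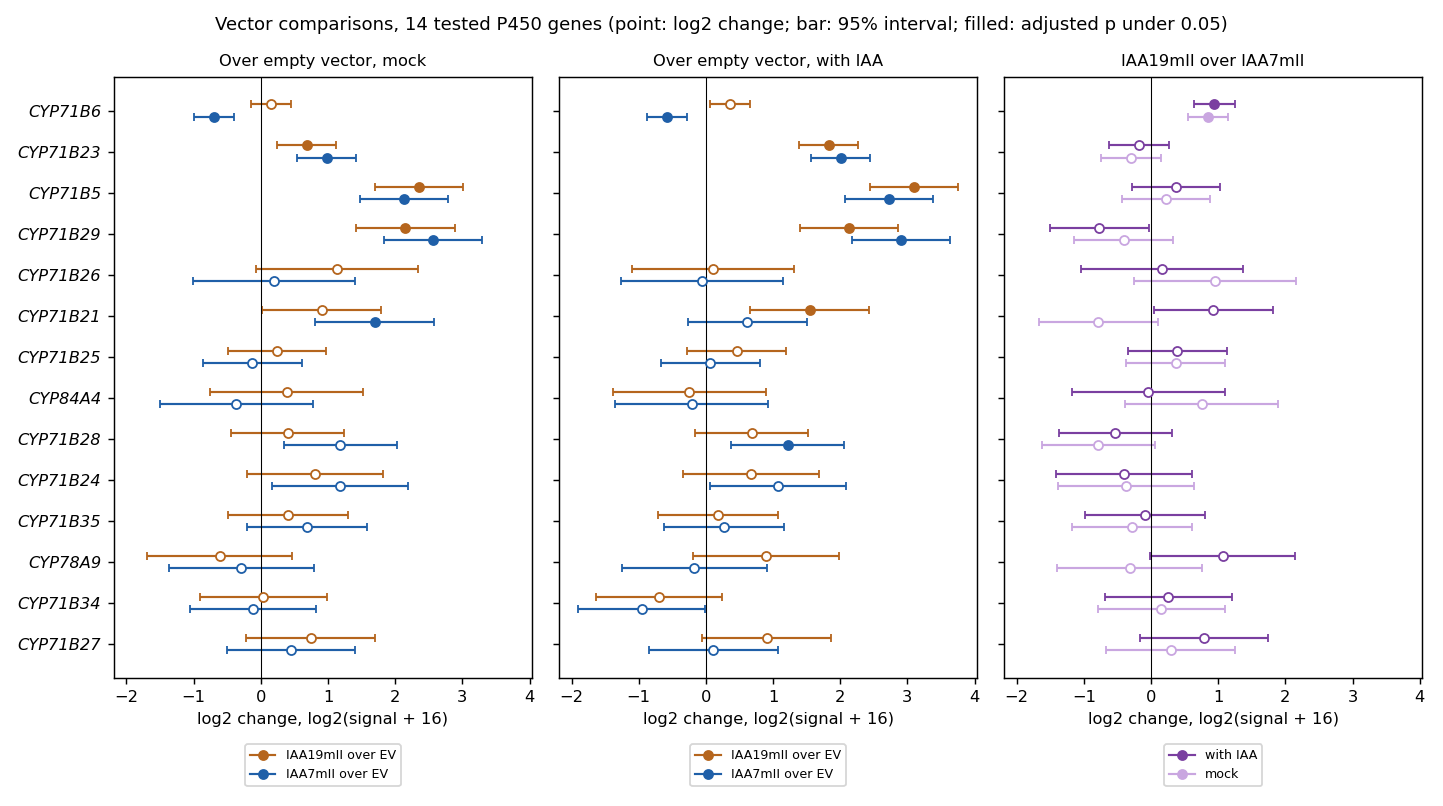
Log2 change (horizontal axis, on the log2(signal + 16) scale) of the 14 tested P450 genes with each over-expressor over the empty vector in mock (left) and with IAA (middle), and with IAA19mII over IAA7mII (right); bars are 95% intervals and filled points have an adjusted p under 0.05. For CYP71B29, CYP71B21, CYP71B28, CYP71B24 and CYP71B27, whose empty vector arrays were all under the 40th percentile, changes over the empty vector are fitted values and not measured sizes. CYP71B23, CYP71B5 and CYP71B29 are to the right of 0 for both plasmids, and CYP71B6 alone is called between the plasmids.

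In the reference gene order the members fall into 9 runs, with at most 10 other genes between neighbouring members of a run, and 3 runs hold more than 1 member. The longest run holds 11 members between AT3G26150 and AT3G26330. Of its 11, 7 were tested and 2, CYP71B21 and CYP71B23, were called, which is 28.6% of the 7 and close to the 30.3% of all probesets that the F test called. Between those neighbours lies CYP71B22, which was not tested: it read at most 35.6, in IAA19mII cells with IAA, and at most 12.2 in empty vector cells. CYP71B24, which follows CYP71B23 with 1 gene between, read 53.7, 28.8 and 12.6 in IAA7mII cells with IAA and 45.0, 133 and 15.1 in IAA7mII mock cells, against 18.4, 0.7 and 0.6 and against 17.5, 21.4 and 3.6 in the empty vector cells so treated. IAA7mII over the empty vector was not called with IAA (adjusted p = 0.129) or in mock (adjusted p = 0.132), and all 6 empty vector arrays were under the percentile.

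Further along the same run, CYP71B25, CYP71B26, CYP71B34 and CYP71B35 were not called with either plasmid. CYP71B25 was the steadiest of them, at 30.7 to 60.2 in IAA19mII cells, 19.0 to 49.1 in IAA7mII cells and 21.3 to 33.7 in empty vector cells. CYP71B26 ranged widely within groups, with 131, 45.5 and 15.9 in empty vector cells given IAA. The 3 untested members of the run beside CYP71B22, which are CYP71B16, CYP71B36 and CYP71B37, read at most 30.8, 22.2 and 26.6.

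CYP71B5 has CYP71B30P next to it, and CYP71B31 follows after 2 other genes. Neither was tested. CYP71B31 read at most 23.4 in IAA19mII cells, 24.6 in IAA7mII cells and 7.7 in empty vector cells, and CYP71B30P exceeded the percentile on 1 array. The remaining run holds CYP71B27, annotated as a transcribed pseudogene, CYP71B28 and CYP71B29. CYP71B28 and CYP71B29 are direct neighbours, and CYP71B27, with 2 genes between it and CYP71B28, was not called. All 23 probesets carry the plain suffix that the array design gives to probes of 1 transcript; binding of transcripts from near copies was not tested, since probe sequences were not used here.

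CYP84A4, CYP78A9, CYP79A2 and CYP51G2 stand for other branches of the family. CYP84A4 hydroxylates a phenylpropanoid aldehyde on the way to arabidopyrones and was the only measured member of 7 in the phenylpropanoid and flavonoid list. It read between 2.8 and 77.7 over all 18 arrays, with every group overlapping, and its closest approach to a call in the vector comparisons was IAA19mII over IAA7mII in mock (0.75 ± 0.55, limma adjusted p = 0.593). CYP78A9, 1 of 6 in the list of organ growth P450s, promotes fruit and seed growth. It read 46.4, 40 and 40.4 in IAA19mII cells with IAA, against 4.5, 21.3 and 2.1 in IAA19mII mock cells. Those groups did not overlap, and the response was not called (1.28 ± 0.53, limma adjusted p = 0.485). The share of all probesets so separated was not counted, and only 1 of the 3 mock arrays exceeded its 40th percentile. CYP79A2, which turns phenylalanine into the oxime of a benzyl glucosinolate, was the 1 measured member of 4 in the list headed aliphatic glucosinolates, although its own product is not aliphatic, and CYP51G2, annotated as a transcribed pseudogene of the sterol demethylase family, was the 1 of 11 in the sterol and carotenoid list. Both went untested, with highest signals of 26.6 and 28.8. CYP71B6 was the 1 of 13 in the indole and camalexin list. The lists for suberin, cutin and wax (12 genes), hormone synthesis (14), hormone breakdown (12) and root triterpenes (13) had 0 members with a probeset used here.

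The response to IAA was asked within each vector. Of the 14 tested P450 genes, 1 was called in empty vector cells, beside 0.734% of all probesets (0.403% lower). This was CYP71B23, which fell 2.02-fold (log2 change -1.02 ± 0.22, limma adjusted p = 0.0127), to 527 (SD 130) with IAA, against 1062 (SD 36.2) in mock. The 3 IAA arrays lay below the 3 mock arrays, a separation whose share over all probesets was not counted. Its call was lost without empty vector mock replicate 1 or 2 (adjusted p = 0.0655 and 0.0763) and without empty vector IAA replicate 1 or 2 (0.128 and 0.0672). CYP71B5 was not called (-0.53 ± 0.32), and its groups overlapped.

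With IAA19mII and with IAA7mII, 0 of the 14 P450 genes were called for IAA, beside 0.0888% of all probesets in each. At an unadjusted p under 0.05 there were 2 with IAA19mII, CYP78A9 and CYP71B21 (0.95 ± 0.43), beside 8.82% of all probesets, and 0 with IAA7mII, beside 7.73%. CYP71B23 averaged 1923 (SD 504) with IAA and 1727 (SD 274) in mock with IAA19mII (0.13 ± 0.22), and 2142 (SD 357) with IAA and 2133 (SD 354) in mock with IAA7mII (0.01 ± 0.22). CYP71B6 was steady under IAA in each vector: 0.07 ± 0.15 with IAA19mII, -0.02 ± 0.15 with IAA7mII and -0.14 ± 0.15 with the empty vector.

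**Figure D4:**
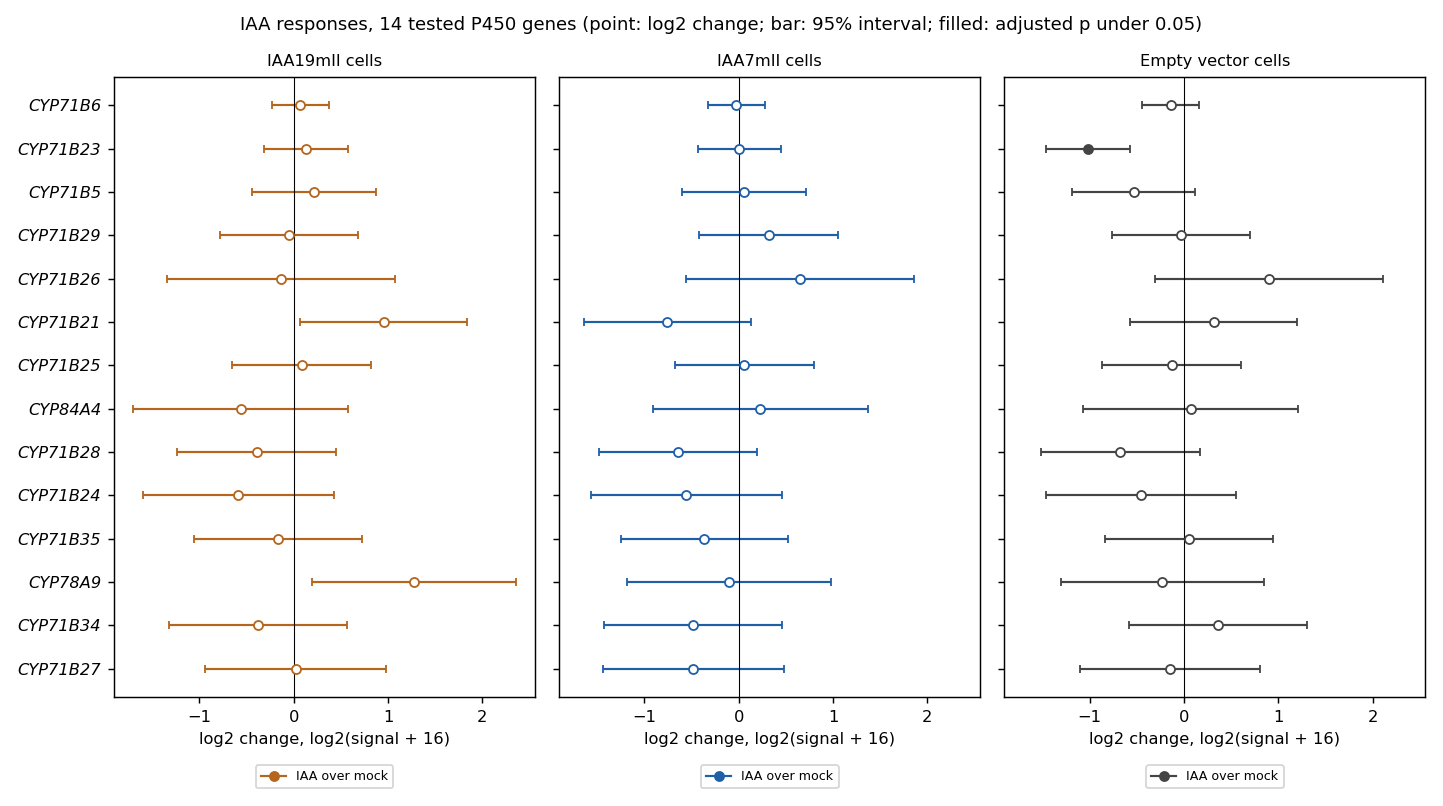
Log2 change with IAA over mock (horizontal axis, on the log2(signal + 16) scale) of the 14 tested P450 genes in IAA19mII, IAA7mII and empty vector cells; bars are 95% intervals and filled points have an adjusted p under 0.05. CYP71B23 in empty vector cells, at -1.02, is the only filled point.

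Whether the IAA response itself differed between vectors was tested as a difference of responses. None of the 14 P450 genes was called by limma, beside 0.0888% of all probesets for IAA19mII minus empty vector, 0.0651% for IAA7mII minus empty vector and 0.0178% for IAA19mII minus IAA7mII. At an unadjusted p under 0.05 there was 1 gene in each, which is 7.14% of the 14, beside 4.88%, 5% and 6.34% of all probesets in the 3 differences as listed. For CYP71B23 the response was higher by 1.15 ± 0.30 with IAA19mII (95% interval 0.52 to 1.77, adjusted p = 0.270) and by 1.02 ± 0.30 with IAA7mII (0.40 to 1.65, adjusted p = 0.569). A smaller fall of CYP71B23 in the over-expressors is therefore not shown after adjustment. Between the repressors the gene was CYP71B21, at 1.71 ± 0.61 (adjusted p = 0.661).

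P450 enzymes depend on partners, and 1 of the 10 listed redox partners could be read. AT3G02280, a diflavin reductase, ran from 35.5 to 92.3 in IAA19mII cells, 47.5 to 169 in IAA7mII cells and 41.5 to 119 in empty vector cells, and its smallest adjusted p over the 12 comparisons was 0.389. Whether this reductase passes electrons to any P450 was not tested. Of the 20 listed partners of the indole pathway, the glucosyltransferase gene UGT74B1, which acts in glucosinolate core synthesis, was the 1 with a probeset used here. It ran from 113 to 323 in IAA19mII cells, 118 to 249 in IAA7mII cells and 72.9 to 362 in empty vector cells, with a smallest adjusted p of 0.348.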

How the data were processed

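The 18 Arabidopsis arrays, 3 in each of 6 groups, were grouped by their sample titles. The deposited values are linear-scale intensity of each probeset, made by the authors with MAS5, per the submitters' processing notes, which give no version here. Of 22746 probesets, 13513 match 1 gene in the platform annotation, 503 match several and 8730 have no gene in the table used; all 23 members matched a reference table of assembly TAIR10.1, used for names and neighbours only. The log2 of signal + 16 entered limma 3.58.1 (R 4.3.3), fitting a mean for each group across the 18 arrays with an intensity trend, for 16892 probesets that exceeded the 40th percentile of an array in 3 or more arrays. Benjamini-Hochberg adjustment was made over all of these within each of 12 comparisons. A fold bound is the brighter group's mean log2 signal less the mean, over the dim group's arrays, of the log2 40th percentile.

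Named were called genes (up to 8 per direction), up to 4 per role list and the 5 members of highest mean; further members of a tandem run were added for the account of the run. Members and lists were chosen with earlier results of these data known. Nothing in the labels tells whether the replicates are independent cultures, so the p-values rest on a spread that may be technical, and precision is limited by the number of arrays. No pair of arrays was identical. The procedure was tested on simulated data. Alternatives were pseudocounts of 1 and 64, no filter or a stricter one (60th percentile), array weights, centring on the median or quantile normalization, only the compared groups, the replicate number as a block and leaving out each array. The experiment files, all of 1 text with empty dates, were not used. The transgenes were not analysed here.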

Additional observations from a re-analysis of the deposited data

Results flagged for a closer look

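One probeset outside the chosen genes matches 2 genes of the CYP71B subfamily and was left out for that reason, yet it read higher in the over-expressors than in the empty vector cells. It read 140, 242 and 589 in IAA19mII cells with IAA and 409, 343 and 432 in IAA19mII mock cells. It read 1057, 599 and 866 in IAA7mII cells with IAA and 912, 1277 and 920 in IAA7mII mock cells, against 23.4, 67.2 and 72.3 in empty vector cells with IAA and 158, 91.3 and 93.4 in empty vector mock cells. Over the empty vector the log2 changes with IAA were 2.13 ± 0.38 for IAA19mII (limma adjusted p = 0.000147) and 3.66 ± 0.38 for IAA7mII (adjusted p = 5.35e-08). In mock they were 1.69 ± 0.38 for IAA19mII (adjusted p = 0.00267) and 3.03 ± 0.38 for IAA7mII (adjusted p = 2.38e-06). It was also called between the repressors, lower in IAA19mII than in IAA7mII cells by 2.88-fold with IAA (-1.53 ± 0.38, adjusted p = 0.0122) and 2.54-fold in mock (-1.35 ± 0.38, adjusted p = 0.0358). Which of the 2 genes gave the signal cannot be read from this probeset, and the plasmid backbone cannot be told apart from the repressors in the comparisons with the empty vector.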

How the results depend on the processing

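Of 20 changes of single P450 genes called in the report, 14 kept their call and direction under every alternative in which the gene was tested, and 6 lost the call in at least 1; 0 reversed. The count of P450 genes changed by IAA in empty vector cells was 0 to 1 when single arrays were left out and 1 under each other alternative; the other counts of called P450 genes stayed within 1.5 times the reported ones. CYP71B28 with IAA7mII and IAA was also lost with a pseudocount of 64 (adjusted p = 0.0542) and with no filter (0.0524). Without the filter CYP71B36, untested in the report, was called with IAA19mII over the empty vector in mock (limma adjusted p = 0.0493), at 22.2, 17.8 and 20.0 against 10.4, 1.9 and 0.8; its 3 IAA19mII mock signals lie under the 40th percentile.

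With the replicate number as a block, the counts of called P450 genes were unchanged, at 5 for IAA7mII and 3 for IAA19mII in mock, 5 and 4 with IAA, 1 for IAA in empty vector cells and 6 by the F test. Same-numbered arrays of different groups had correlations of their deviations from the group means of -0.06 to 0.16 (median 0.01, over 0.1 in 1 of 45 pairs). Differently numbered arrays had -0.15 to 0.12 (median -0.01, over 0.1 in 1 of 90 pairs). On average, 15 of 18 arrays correlated best with arrays of their own number, a hint of pairing from the data only. Low correlations of single pairs cannot decide whether the numbers pair the samples, so this stays unsettled. A scan-date block was not run, since the dates are empty. Signals near the 40th percentile limit what can be said of CYP71B21, CYP71B28 and the untested genes; without an array its group has 2 left, assumed to vary like the other groups.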

Other observations

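CYP718, a P450 gene whose symbol has no letter after its digits and which is therefore no member, was tested and not called in any comparison. It read 2.5 to 63.4 in IAA19mII cells with IAA, 2.9 to 17.7 in IAA19mII mock cells, 16.8 to 41.1 in IAA7mII cells with IAA and 3.2 to 69.5 in IAA7mII mock cells, against 16.5 to 40.9 and 13.6 to 40.1 in empty vector cells with IAA and in mock. Another probeset, which matches 2 genes and so was left out, was not tested and read at most 44.7.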
